A study of Mus musculus with 6 samples.

Results

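The genes described here are AP-1 and immediate early genes: the Fos family (Fos, Fosb, Fosl1, Fosl2), the Jun family (Jun, Junb, Jund), and Egr1, Atf3 and Ier2. They were chosen by symbol, and all 10 were among the 19618 genes of the deposited table. The libraries came from tail keratinocytes, the epithelial cells of the epidermis, of mice aged 4 months, 3 with Gpr161 deleted by an epidermal Cre and 3 controls. The knockout mice carried K14cre and a homozygous floxed Gpr161 allele. K14cre places Cre recombinase under a keratin 14 promoter, which is active in basal keratinocytes and hair follicle epithelium. The controls were labelled with a floxed allele and no K14cre, 1 of the 3 homozygous and the others heterozygous, so Cre itself was not controlled for. Tail skin was held overnight at 4 °C in trypsin and dispase before the epidermis was scraped off, minced, strained and lysed. The columns of the tables show genotype and a tag but no sample title, so libraries are called by tag. Knockout tags are DE679, DE685 and DE688, and control tags DE680, DE684 and DE689. The names do not show which control is homozygous.

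AP-1 is a transcription factor made of a Jun protein paired with a Fos protein, another Jun protein or a related factor such as Atf3, joined through a leucine zipper. Many of its genes are immediate early genes: growth factors, stress or wounding switch them on within minutes through MAP kinases and factors already present in the cell, and their mRNAs decay quickly. Enzymatic release of cells from tissue is itself known to induce them, so their level in isolated cells is not taken as that of intact skin. In epidermis, AP-1 is known for roles in proliferation, wound repair and the differentiation programme.

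Totals were 17157864 to 25344399 estimated counts per library. Gpr161, the targeted gene, had 25.9 to 33.6 CPM (the count scaled to library size, with TMM factors) in the knockout and 30.2 to 32.2 CPM in the control and did not check the labels (edgeR quasi-likelihood, Benjamini-Hochberg adjusted p 0.553), so knockout here means a library labelled knockout. Gli1, a target of Hedgehog signalling, was at 66.7 to 74.5 CPM in the knockout and 8.25 to 9.96 CPM in the control. The summed CPM of 6 keratinocyte markers was 38443 to 47599 in the knockout and 36818 to 54555 in the control. Y-linked transcripts were found in DE685 and DE684 and Xist in the other 4 libraries, so each group held 1 library of the Y-linked kind. Whether each library came from a separate mouse is not stated, so p-values measure the spread between these libraries.

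No difference between the genotypes passed the test for any of the 10 genes. In the edgeR quasi-likelihood test, 0 of 10 had an adjusted p under 0.05, against 1.60% of the 15422 genes tested. All 10 passed the filter on low counts. At an unadjusted p under 0.05 there was 1, Fosl2, against 19.0% of all genes, and DESeq2 (5.65% of all genes), limma-voom (1.58%) and limma on the authors' normalized values also called 0 of the 10. The log2 fold change, knockout over control, was positive for 8 genes and negative for Jun and Ier2, with a median of 0.34 beside −0.0036 over all genes tested. The groups did not overlap for 1 of the 10, Fosl2, beside 25.6% of all genes. In 12.8% of all genes the knockout was above and in 12.8% below.

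**Figure D1:**
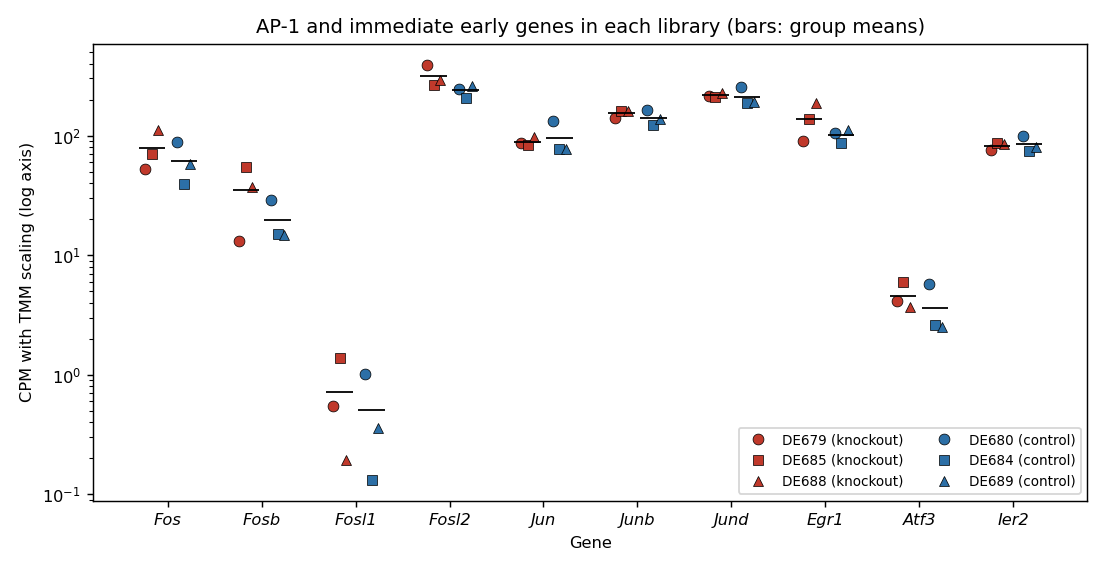
Each point is the CPM of a gene (log axis) in a library, red for the knockout and blue for the control, with bars at the group means. Fosl2 is the only gene whose 3 knockout points, 263 to 391 CPM, all lie above the control points, 207 to 262 CPM; Fosl1 lies lowest, at 0.132 to 1.39 CPM.

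Among genes compared per kilobase of exon, Jund, Junb and Ier2 were the most abundant. Jund came first with a mean of 128 CPM per kb and a range of 111 to 152 over the 6 libraries. Junb followed at 81.6 (68.2 to 90.01 CPM per kb) and Ier2 at 54.8 (48.4 to 64.8 CPM per kb). The ranges of these neighbours in the order did not overlap. Fos (16.8 to 47.7 CPM per kb), Jun (24.1 to 41.2), Fosl2 (21.3 to 40.4) and Egr1 (19.2 to 41.5) overlapped one another, with means of 29.8, 28.9, 28.6 and 26.6 CPM per kb, so their order is not resolved. Fosb (2.09 to 8.80 CPM per kb) and Atf3 (1.16 to 2.76) were lower and overlapped each other, and Fosl1 was lowest, at 0.0647 to 0.682 CPM per kb. Read within families, Jund made up 52.3% to 55.2% of the Jun family sum per kb in every library, Junb 31.8% to 36.9% and Jun 10.9% to 14.6%. The Fos family was divided less evenly between libraries: Fosl2 made up 36.1% to 61.9% of its sum, Fos 34.5% to 56.7%, Fosb 3.21% to 13.2% and Fosl1 at most 1.02%. The order and the shares rest on the length of all annotated exons joined, 9.68 kb for Fosl2 and 1.668 kb for Jund. By CPM alone Fosl2 had the higher means, 316 in the knockout and 238 in the control, against 217 and 209.6 for Jund.

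To show the sequence next to the starts of these genes, the 120 bases before a RefSeq transcript start are given for 5 members, 3 with a wide spread between libraries (Fos, Fosb, Atf3), Jun with an intermediate one and Junb with a narrow one. They are RefSeq windows on GRCm38.p6, 5′ to 3′ on the strand of the gene, and 7 of the 10 genes matched by symbol. Fosl1, Egr1 and Ier2 had no entry. The RefSeq start need not be the end of the gene span in the count table. The windows of Fos and Jun adjoin that span and those of Fosb and Junb lie close to its end, but those of Atf3 and Fosl2 lie inside it, and that of Jund lies upstream of it. Capitals mark matches on either strand. The motif TGACGT is a short form of the cAMP response element. A longer, looser form of that element was searched as TGACNTCA. The letters TATAAA stand for a TATA box. Those of the GC box were GGGCGG. Junb held none of the 4 in this stretch.
Fos, chr12:85473770-85473889, plus strand: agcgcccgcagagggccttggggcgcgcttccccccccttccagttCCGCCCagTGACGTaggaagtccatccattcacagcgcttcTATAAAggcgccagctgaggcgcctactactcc
Fosb, chr7:19310046-19310165, minus strand: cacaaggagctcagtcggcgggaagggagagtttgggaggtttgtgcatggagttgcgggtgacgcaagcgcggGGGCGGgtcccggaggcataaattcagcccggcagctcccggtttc
Atf3, chr1:191183334-191183453, minus strand: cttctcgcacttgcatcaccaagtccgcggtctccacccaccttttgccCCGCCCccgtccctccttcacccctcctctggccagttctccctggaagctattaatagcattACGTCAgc
Jun, chr4:95052223-95052342, minus strand: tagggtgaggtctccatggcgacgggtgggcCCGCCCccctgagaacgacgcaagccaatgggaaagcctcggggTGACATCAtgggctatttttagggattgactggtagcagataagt
Junb, chr8:84978749-84978868, minus strand: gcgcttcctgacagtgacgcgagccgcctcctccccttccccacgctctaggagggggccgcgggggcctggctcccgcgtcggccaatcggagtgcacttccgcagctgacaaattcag

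Over the 250 bases before these RefSeq starts, TGACGT was found in Fos, 66 to 61 bases before the start, and in Atf3, 8 to 3 bases before it, that is in 2 of 7 members and in 6.47% of 32851 windows of the same length. TGACNTCA was found in Jun alone (1 of 7, against 7.49% of windows) and TATAAA in Fos alone, 33 to 28 bases before the start (1 of 7, against 12.4%). GGGCGG was found in 5 of 7, all but Jund and Junb, against 32.7% of windows. TGANTCA, a short form of the AP-1 site, was found in 0 of 7 (6.75% of windows). TGACGTCA, which contains TGACGT and is a form of TGACNTCA, was found in 0 of 7 (1.55%). The CArG box bound by SRF was found in 0 of 7 (1.47%) and the Ets core CCGGAA in 0 of 7 (12% of windows). A match describes letters in the window only. The lack of a match says nothing of other forms of a site or of bases outside the window.

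Fos (chromosome 12, 85473890 to 85477273, plus strand; all coordinates are on mm10), the classic immediate early gene and a subunit that needs a Jun partner to bind DNA, had 52.9, 70.4 and 112 CPM in the knockout libraries (DE679, DE685, DE688) and 88.0, 39.5 and 57.6 CPM in the control libraries (DE680, DE684, DE689). Values of the other genes follow in this order of libraries. The groups overlapped over most of their range, with the highest and the second-highest library in different genotypes. Means were 78.5 ± 30.5 CPM in the knockout and 61.7 ± 24.5 in the control (SD, n = 3 per genotype), and the log2 fold change was 0.35 (SE 0.33, 95% interval −0.43 to 1.13, edgeR adjusted p 0.608). Without DE688 alone the change was −0.0028 and without DE680 it was 0.69.

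Fosb (chromosome 7, 19302696 to 19310051, minus strand), a close relative of Fos with the same dependence on Jun, had the highest within-group SD of log2(CPM + 0.5) of the members, 0.84. It had 13.1, 54.9 and 37.3 CPM in the knockout and 28.9, 14.9 and 14.8 CPM in the control. Both the lowest and the highest library were knockouts, 4.21 times apart. The change was 0.84 on the log2 scale (SE 0.48, 95% interval −0.28 to 1.96, edgeR adjusted p 0.385), and it was 0.37 without DE685 and 1.24 without DE679.

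Fosl2 (chromosome 5, 32135801 to 32157842, plus strand), a Fos family subunit expressed in differentiating epidermis, came nearest to a difference. It had 391, 263 and 294 CPM in the knockout and 246, 207 and 262 CPM in the control. Every knockout library was above every control library, though DE685 and DE689 differed by little. Means were 316 ± 66.5 and 238 ± 28.5 CPM (SD, n = 3 each), a fold of 1.33 and a log2 change of 0.41 (SE 0.15, 95% interval 0.056 to 0.76). The unadjusted p was 0.0282 and the edgeR adjusted p 0.211. Over the alternatives the adjusted p ran from 0.0583 (DESeq2) to 0.478, so Fosl2 was not called in any of them; with adjacent tags as a block it was 0.0586. The highest p and the smallest change, 0.23, came without DE679, the library with the highest Fosl2.

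Fosl1 (chromosome 19, 5447547 to 5455946, plus strand), a Fos family subunit known for induction in migrating and transformed keratinocytes, was close to the limit of detection. Its estimated counts were 3 to 24 per library, where 3 counts correspond to 0.117 to 0.173 CPM. It had 0.551, 1.39 and 0.194 CPM in the knockout and 1.02, 0.132 and 0.357 CPM in the control. The groups overlapped over nearly their whole range. With a log2 change of 0.44 (SE 0.84, 95% interval −1.51 to 2.38, edgeR adjusted p 0.816), its direction was not resolved at this depth. An exon overlaps one of Ccdc85b on the opposite strand, which had 339 to 568 counts, and whether counting used strand is not stated, so the few Fosl1 counts are uncertain.

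Jun (chromosome 4, 95049034 to 95052222, minus strand), the founding subunit of AP-1 and a target of JNK, was even in 5 libraries and high in 1. It had 86.1, 83.9 and 96.3 CPM in the knockout and 131, 77.6 and 76.8 CPM in the control. The control library DE680 was above all others, and the remaining controls were below all knockouts. Means were 88.8 ± 6.64 and 95.3 ± 31.3 CPM (SD, n = 3 each), a change of −0.10 (SE 0.20, 95% interval −0.56 to 0.36, edgeR adjusted p 0.822). Without DE680 the direction turned, to 0.20 with an adjusted p of 0.237. The exon of Jun overlaps the antisense gene Junos, which had 10.4 to 21.4 counts against 1453 to 2963 for Jun.

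Junb (chromosome 8, 84976910 to 84978718, minus strand), which can restrain Jun and limits inflammation in epidermis, was among the steadiest members. It had 141, 162 and 159.6 CPM in the knockout and 163, 123 and 138 CPM in the control. Highest and lowest library were both controls, only 1.32 times apart. The change was 0.12 (SE 0.11, 95% interval −0.12 to 0.37, edgeR adjusted p 0.560).

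Jund (chromosome 8, 70698949 to 70700616, plus strand), a subunit that is expressed more constantly than its relatives in many cells, had 215, 212 and 225 CPM in the knockout. The controls had 253, 185 and 191 CPM. The 3 knockout libraries lay inside the range of the controls. Means were 217 ± 7.14 and 209.6 ± 37.5 CPM (SD, n = 3 each), a change of 0.053 (SE 0.12, 95% interval −0.22 to 0.32, edgeR adjusted p 0.842). Its exon overlaps the antisense gene Gm11175, which had 1.96 to 12.7 counts beside 3663 to 5795 for Jund.

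Egr1 (chromosome 18, 34859823 to 34864984, plus strand), a zinc finger factor induced by ERK signalling, had 89.9, 137 and 186 CPM in the knockout and 105, 86.0 and 111 CPM in the control. DE688 and DE685 were above every control, and DE679 was inside the control range. Means were 138 ± 48.0 and 101 ± 12.9 CPM (SD, n = 3 each), a change of 0.45 (SE 0.23, 95% interval −0.091 to 1.00, edgeR adjusted p 0.335). It was 0.17 without DE688 and 0.69 without DE679.

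Atf3 (chromosome 1, 191170296 to 191218039, minus strand), a stress-induced partner of Jun proteins that often represses, was low, with 59 to 130 counts per library. It had 4.16, 5.95 and 3.66 CPM in the knockout and 5.77, 2.59 and 2.50 CPM in the control. DE680 stood among the knockouts, and the other controls were below them. The change was 0.34 (SE 0.37, 95% interval −0.51 to 1.19, edgeR adjusted p 0.653), rising to 0.84 without DE680 (adjusted p 0.193).

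Ier2 (chromosome 8, 84661331 to 84662854, minus strand), a small nuclear protein gene used as an immediate early marker, had 76.4, 86.3 and 84.8 CPM in the knockout and 98.6, 73.7 and 80.5 CPM in the control. The knockouts again fell inside the range of the controls. The change was −0.031 (SE 0.11, 95% interval −0.29 to 0.22, edgeR adjusted p 0.910), and the interval was about as narrow as those of Junb and Jund.

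**Figure D2:**
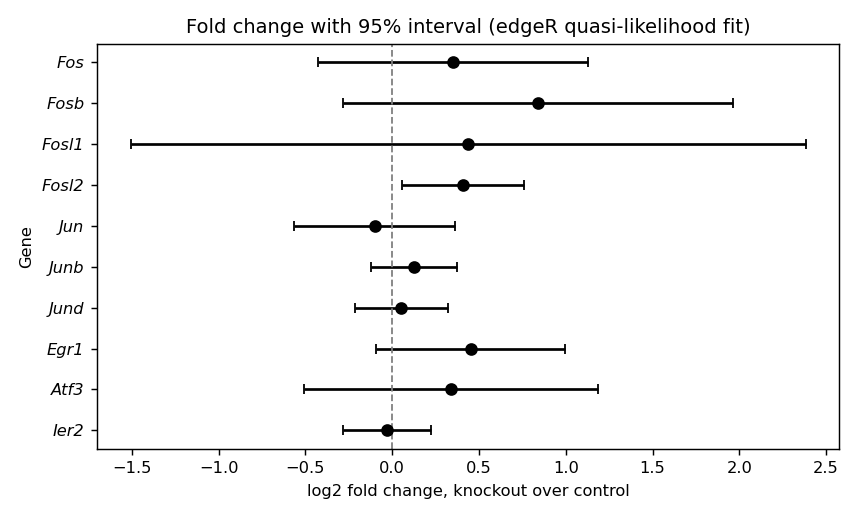
Points are log2 fold changes of knockout over control and bars their 95% intervals from the edgeR quasi-likelihood fit, unadjusted for the number of genes. The interval of Fosl2, 0.056 to 0.76, is the one that does not reach 0; that of Fosl1 is the widest, −1.51 to 2.38.

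The balance between families was also compared, as sums of CPM per kb. The Jun family sum was 233.9, 242.5 and 253.5 in DE679, DE685 and DE688, and 283, 204 and 214 in DE680, DE684 and DE689. The Fos family sum was 65.2, 66.6 and 84.2 in the knockout and 68.0, 40.6 and 54.1 in the control, in the same order. The Jun sum was therefore 3.59, 3.64 and 3.01 times the Fos sum in the knockout and 4.16, 5.02 and 3.97 times in the control, with no overlap between the groups. An exact two-sided permutation test of this ratio gave p = 0.1, the smallest that 3 against 3 allows, and 0.3 after Benjamini-Hochberg adjustment over the 3 sums and ratios tested. The Fos sum had exact p = 0.3 (adjusted 0.45) and the Jun sum p = 0.8 (adjusted 0.8).

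The spread between libraries of the same genotype was wide for several members. It was measured as the SD of log2(CPM + 0.5) pooled within the 2 groups. The median member had an SD of 0.36, the median gene tested 0.14. Of the 10 members, 5 were above the 90th percentile of all genes tested (0.39), a limit that 10.0% of genes pass by construction, and all 10 were above the median. Fosb was at percentile 98.6 (SD 0.84), Fosl1 at 97.7 (0.69), Fos at 96.3 (0.56), Atf3 at 94.5 (0.49) and Egr1 at 90.5 (0.39). Jun (84.1), Fosl2 (73.3), Jund (60.3), Ier2 (57.0) and Junb (55.9) had lower percentiles. No test was made of this, since the spread of a gene also depends on its level: among the 9681 genes with a mean of at least 10 CPM, the median SD was 0.10 and the 90th percentile 0.23. Set beside what edgeR fitted for genes of the same abundance, the biological coefficient of variation was 0.29 for Fos against a trend of 0.11, 0.41 against 0.13 for Fosb and 0.21 against 0.10 for Egr1. It was 0.66 against 0.34 for Fosl1 and 0.18 against 0.10 for Jun. For Atf3 it was 0.33 against 0.27 and for Fosl2 0.14 against 0.11, closer to genes of their level. Junb and Ier2 had 0.11 against 0.10 and Jund 0.12 against 0.11.

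**Figure D3:**
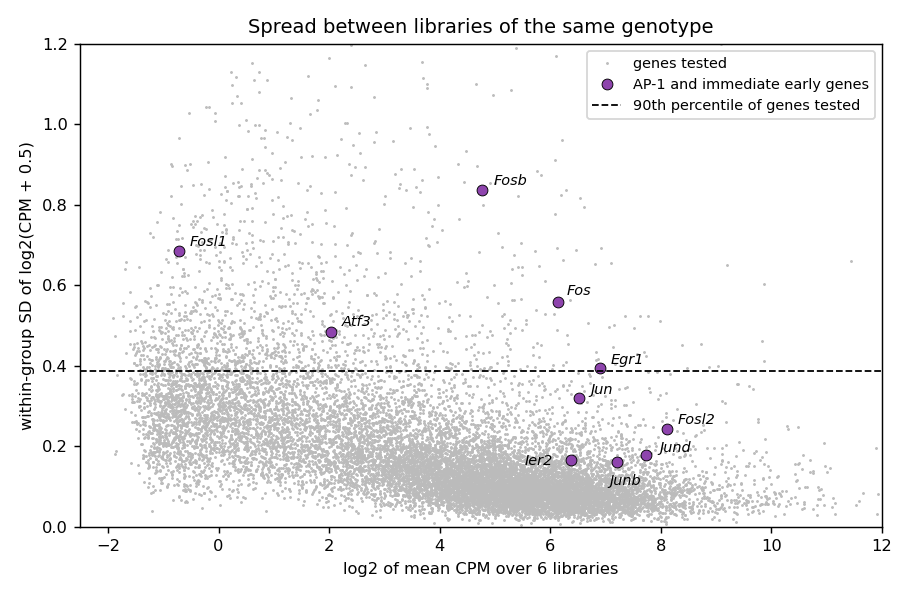
Each grey point is a gene tested, by its mean level and its within-group SD; purple points are the members and the dashed line the 90th percentile, 0.39. Fosb, Fos, Egr1, Atf3 and Fosl1 lie above the line and Junb, Ier2 and Jund near the mass of genes; 90 genes with an SD above 1.2 lie beyond the axis.

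Library by library, the controls differed in a way that most members shared. DE684, a control, was below the mean of the gene for all 10 members and was the lowest library for 7 of them. DE689, also a control, was below the mean for all 10 and lowest for 2. DE680, the third control, was above the mean for 8 of 10 and the highest library for 4: Jun, Junb, Jund and Ier2. Among the knockouts, DE688 was above the mean for 8, DE685 for 7 and DE679 for 4. DE685 was highest for Fosb, Fosl1 and Atf3, DE688 for Fos and Egr1, and DE679 for Fosl2 while it was lowest for Fosb. The median deviation over the 10 members, on the log2 scale, was −0.40 in DE684, −0.18 in DE689 and −0.066 in DE679, and 0.10 in DE688, 0.11 in DE685 and 0.27 in DE680. These counts and medians were not taken over all genes tested, so they do not set the members apart from other genes.

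**Figure D4:**
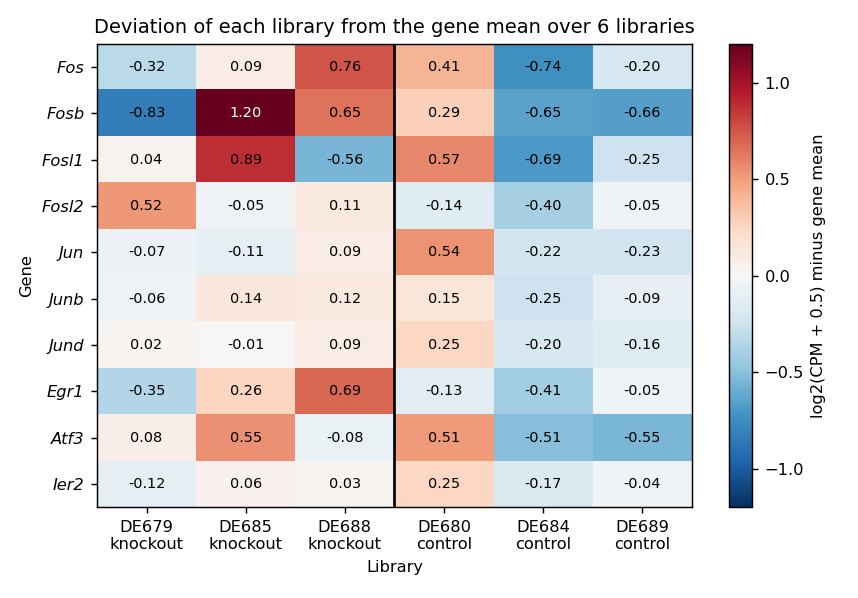
Colours and numbers give log2(CPM + 0.5) in a library minus the gene mean over the 6 libraries, knockouts left and controls right of the line. The columns of DE684 and DE689 are negative for every gene, while DE680 is negative for Fosl2 and Egr1 only.

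The tags fall into 3 adjacent couples of a knockout and a control, and no label says whether these share a litter or a day. Both libraries of a couple had Xist or both had Y-linked transcripts. Over all genes tested, deviations from the genotype means correlated within the couples at r = 0.22, 0.37 and 0.40. Each knockout correlated negatively with the controls of other couples. Deviations within a genotype sum to 0 for each gene, so a positive value within a couple forces the others below 0 in sum. The negative values are therefore no separate evidence of pairing. Genes are not replicates, and the part of sex or handling in the correlations within couples was not tested. DE679 was below DE680 for 9 of the 10 members, with a median difference of −0.40 on the log2 scale. DE685 was above DE684 for all 10 (median 0.53), and DE688 was above DE689 for 9 (median 0.28). The same counts were not taken over all genes tested. Fosl2 was the 1 member higher in DE679 than in DE680, and so was higher in the knockout of 3 of 3 couples. With the couples as a block, edgeR called 0 of 10 members, with Fosl2 and Egr1 (adjusted p 0.0586 and 0.212) at an unadjusted p under 0.05, beside 23.2% of all genes.

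The direction of the members moved with the libraries left out. With all libraries 8 of 10 changes were positive. Without DE680 all 10 were positive, with a median of 0.46, 4 at an unadjusted p under 0.05 (18.9% of all genes in that fit) and 0 called (smallest edgeR adjusted p 0.167). Without DE684, 6 were positive, with a median of 0.073 and 0 at an unadjusted p under 0.05 (16.8% of all genes). Among all genes, 49.7% were positive in both of these fits. Leaving out DE679, DE685, DE688 or DE689 gave 9, 7, 7 and 7 positive changes, with medians of 0.32, 0.099, 0.13 and 0.19, and 0 called.

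Markers of other cells were unevenly spread over the same libraries. The summed CPM of 6 fibroblast markers was 129 to 142 in the knockout and 37.4 to 79.1 in the control, with Dcn, a matrix proteoglycan, at 119 ± 6.19 and 31.9 ± 10.1 CPM (SD, n = 3 each). Of the 5 fibroblast markers tested, Dcn was the 1 called and made up most of the sum. The collagen genes Col1a1, Col1a2 and Col3a1 had log2 changes of −0.38, −0.42 and −0.54 (edgeR adjusted p 0.663, 0.599 and 0.489) and were highest in DE684. The sum of 6 immune cell markers was 39.6 to 94.9 CPM in the knockout and 19.7 to 77.6 in the control, lowest in DE684. Melanocyte markers summed to 66.8 to 103 and 46.4 to 71.9 CPM and endothelial markers to 2.71 to 4.24 and 4.64 to 8.34 CPM. The 3 skeletal muscle markers listed in the table summed to 2.19 to 2.86 and 1.94 to 3.10 CPM, and Acta1, Myh4 and Tnnt3 were not among the genes listed. Mitochondrial counts were 2.02% to 2.19% of a library in the knockout and 2.14% to 2.55% in the control, highest in DE684. The part of these differences in the levels of the members was not tested, and in bulk samples fewer cells of a type and less RNA per cell cannot be told apart.

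Other immediate early genes were read from the same fit. Of 25 listed and tested, edgeR called 0 (1.60% of all genes) and 5 had an unadjusted p under 0.05 (19.0% of all genes). Of the changes, 15 were positive (median 0.077). DESeq2 called 3, with 5.65% of all genes called by it, and limma-voom 0. The groups did not overlap for 5 of the 25, beside 25.6% of all genes. The smallest p-values belonged to Socs3, an inhibitor of JAK-STAT signalling, Sgk1, a kinase induced by serum and glucocorticoids, and Klf4, a factor required for the epidermal barrier. Socs3 had 13.3, 14.8 and 13.8 CPM in the knockout and 8.96, 9.65 and 7.14 in the control. All knockouts were above all controls, by 0.70 on the log2 scale (SE 0.14, edgeR adjusted p 0.0563). Sgk1 was at 157 to 179 and 105 to 142 CPM (0.42, SE 0.11, adjusted p 0.107), and Klf4 at 761 to 917 and 962 to 1092 CPM (−0.32, SE 0.088, adjusted p 0.119). These 3 genes were the 3 called by DESeq2, with adjusted p of 0.00196, 0.00713 and 0.0129. They also passed with a sex covariate in edgeR (0.0357, 0.0353 and 0.0362) and with adjacent tags as a block (0.0261, 0.0159 and 0.0346). Those fits called 409 and 704 of all 15422 genes.

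Of these 25 genes, 4 had an SD above the 90th percentile: Ptgs2, Dusp1, Nr4a1 and Nfkbiz, picked for this once their values were known. Dusp1, a phosphatase that switches off MAP kinases, had 28.9, 51.4 and 75.4 CPM in the knockout and 48.7, 37.5 and 41.7 in the control. Its order of the knockout libraries was that of Fos and Egr1. An exon of Dusp1 overlaps one of Ergic1 on the opposite strand.

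The genes whose pattern over the 6 libraries was most like that of Fos were sought among 13656 genes with a mean of at least 1 CPM, by the root mean square difference in log2(CPM + 0.5) after centring each gene. They were Gm9747 (0.18), Bdnf (0.18), Nr4a1 (0.20), Fbxo44 (0.22) and Ccdc28b (0.23). Nr4a1, an orphan nuclear receptor and itself an immediate early gene, had 5.34, 10.2 and 10.97 CPM in the knockout and 9.01, 4.91 and 6.90 in the control. In each of the genes found, as in Fos, DE688 was highest and DE684 lowest. Their choice by likeness to Fos favours this, so it is no separate evidence. Bdnf, a neurotrophin gene whose transcription follows CREB activity in neurons, was low, at 1.01 to 2.45 CPM. Of the members, Egr1 was nearest to Fos, at 0.27, and Fosl1 (0.65), Fosb (0.54) and Fosl2 (0.51) were farthest. Exons of Gm9747, Bdnf and Ccdc28b overlap those of Irs1, Gm45346 and Tmem234 on the opposite strand, which leaves those counts less certain.

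Among feedback inhibitors of ERK signalling and of Egr factors, 1 of 12 genes tested fell and 0 rose, beside 0.357% lower and 1.24% higher among all genes. It was Nab1, a corepressor that binds Egr proteins. Nab1 had 96.3, 103 and 98.7 CPM in the knockout and 119, 121 and 124 in the control. Every knockout library was below every control library, and the groups were narrow. The change was −0.29 (SE 0.054, edgeR adjusted p 0.0499). The call was marginal: the adjusted p was 0.0540 with RLE factors, 0.0541 with upper-quartile factors, 0.0555 with no filter and 0.0538 with limma-voom. It was 0.0461 with a mean of at least 1 CPM, 0.0420 with limma on the authors' values, 0.0485 with a sex covariate, 0.0380 with adjacent tags as a block and 0.0037 with DESeq2, and 0.0879 to 0.199 with any of the 6 libraries left out. Spry1 and Spry2, inhibitors of receptor tyrosine kinase signalling, changed by −0.39 (SE 0.12, edgeR adjusted p 0.141) and −0.22 (SE 0.086, adjusted p 0.222). Neither was called by edgeR with genotype as the only term. DESeq2 called 2 of the list, Nab1 and Spry1, beside 5.65% of all genes. The same 2 were called by edgeR with adjacent tags as a block (Spry1 adjusted p 0.0258) and with a sex covariate (Spry1 adjusted p 0.0365). Those fits called 704 and 409 of all 15422 genes. An exon of Spry1 overlaps Gm42922 on the opposite strand. The median of the list was −0.093.

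Neither the partners of AP-1 nor the machinery upstream of it held a gene called by the edgeR test without a block. Of 12 other bZIP factors tested (of 15 listed), edgeR called 0, beside 1.60% of all genes. At an unadjusted p under 0.05 there was 1, Maf, beside 19.0% of all genes, and the median change was −0.020. DESeq2 and limma-voom also called 0. Maf, a bZIP factor of the differentiating epidermis, was at 299.9 to 380.3 CPM in the knockout and 366 to 474 in the control (−0.29, SE 0.12, edgeR adjusted p 0.259, and 0.0354 with adjacent tags as a block). Atf4 and Atf5, factors of the integrated stress response, changed by −0.20 and 0.30 (edgeR adjusted p 0.288 and 0.394). Exons of Maf and Atf5 overlap genes on the opposite strand. Of 19 kinases and factors upstream, edgeR called 0 and 4 had an unadjusted p under 0.05, beside the same 1.60% and 19.0% of all genes. Their median was −0.0082, with changes between −0.19 and 0.40. DESeq2 and limma-voom called 0 of these as well. The smallest p-values were those of Mapk9, a JNK gene (−0.19), Map2k1, a MEK gene (0.16), and Rps6ka3, an RSK gene (−0.15), with edgeR adjusted p of 0.203, 0.232 and 0.236.

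Of 14 known AP-1 targets of skin that were tested (of 19 listed), edgeR called 0, beside 1.60% of all genes. An unadjusted p under 0.05 was found for 5, beside 19.0% of all genes, with 6 positive and 8 negative changes (median −0.036). Sprr1b, a cornified envelope precursor whose promoter is a textbook AP-1 target, had 39.6, 55.9 and 40.3 CPM in the knockout. The controls had 73.2, 85.5 and 67.4 CPM. All knockouts were below all controls, by −0.74 on the log2 scale (SE 0.15, edgeR adjusted p 0.0603). Limma-voom called Sprr1b (adjusted p 0.0475), as did DESeq2 (6.37e-05) and edgeR with a sex covariate (0.00384), with adjacent tags as a block (0.0029) or without DE685 (0.0288). Mmp3, a stromelysin gene, was at 3.81 to 9.16 and 9.84 to 15 CPM (−0.95, SE 0.31, edgeR adjusted p 0.166, DESeq2 adjusted p 0.0269). Lor, which encodes loricrin, was at 717 to 774 and 795 to 1054 CPM (−0.29, SE 0.10, edgeR adjusted p 0.196). The others of the 5 were higher in the knockout and were named with their values known. Ccnd1 changed by 0.35 (edgeR adjusted p 0.198) and Vegfa by 0.27 (edgeR adjusted p 0.216).

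Chaperone genes, which cell dissociation and heat can induce, also gave no call. Of 12 tested, edgeR called 0 and 2 had an unadjusted p under 0.05, beside 1.60% and 19.0% of all genes. DESeq2 and limma-voom called 0 of the 12. The changes were small, from −0.27 to 0.26 with a median of −0.056, and 9 of 12 were negative. Hspd1, a mitochondrial chaperonin, was at 155 to 179 CPM in the knockout and 181 to 194 in the control (−0.19, SE 0.069, edgeR adjusted p 0.198). Hspa8, a constitutive member of the family that assists folding, was at 643 to 753 and 728 to 935 CPM (−0.27, adjusted p 0.224), and Hsp90aa1 at 136 to 139.7 and 138 to 158 CPM (−0.10, adjusted p 0.409). Hspd1 overlaps Hspe1 on the opposite strand and Hspa8 holds small nucleolar RNA genes, which their counts may include. None of the 12 was above the 90th percentile of spread over all genes tested. The median SD of the list was 0.13, beside 0.36 for the AP-1 and immediate early genes. The spread also depends on level, and Fosl1 and Atf3 were lower than any of the 12. Among genes with a mean of at least 10 CPM the median SD was 0.10 and the 90th percentile 0.23, which Hsph1 (0.24) passed.

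**Figure D5:**
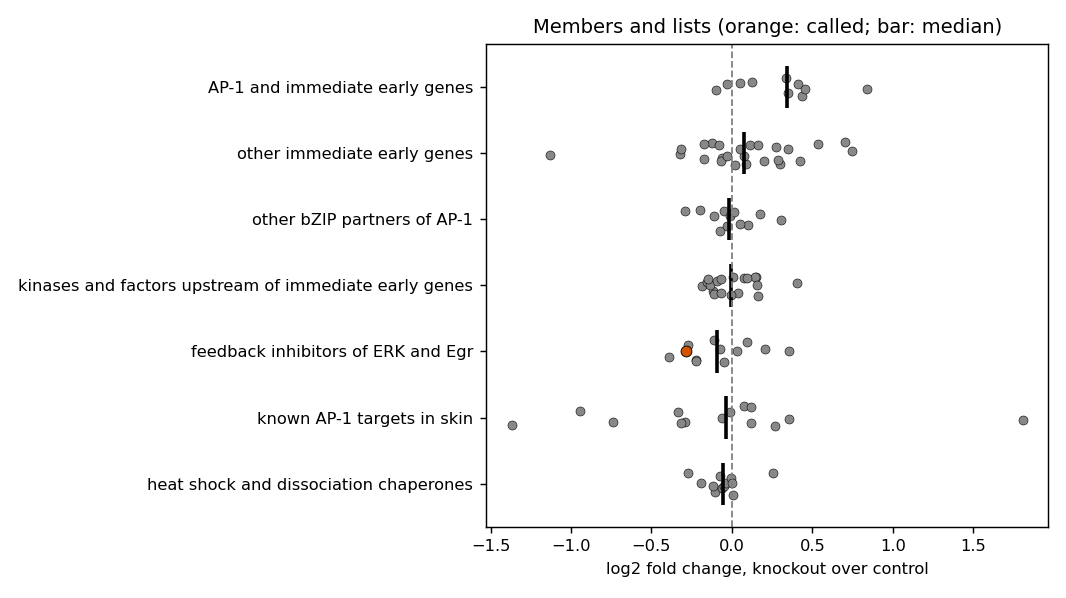
Points are log2 fold changes of knockout over control for the 10 members and the genes tested of 6 other lists, bars are medians, and orange marks an edgeR adjusted p under 0.05. Nab1, at −0.29, is the single orange point, and medians run from −0.093 for feedback inhibitors to 0.34 for the members.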

How the data were processed

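One deposited table holds estimated counts by gene, of which 53.0% to 57.7% in a library are whole numbers, and the authors' other table holds normalized signal, which equals the deposited estimated count times a constant per library plus 0.001. Per the submitters' processing notes, bcl2fastq 2.20, cutadapt 1.18, STAR 2.7.0f, Partek and the build mm10 were used, with no roles given. The counting tool, its use of strand and the annotation are not given in the sources used here. Libraries were made from polyadenylated RNA with a stranded kit per the labels' protocols. Column names gave genotype only.

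Because the test was laid out for counts, estimated counts were first rounded. edgeR 4.0.16 (filterByExpr defaults, TMM factors, glmQLFit and glmQLFTest, genotype as the only term) was fitted to all 6 libraries, with Benjamini-Hochberg adjustment over all genes tested and a threshold of 0.05. It was tested on simulated data first, with the variation of every gene set at the edgeR trend. All members lay above that trend, Junb, Jund and Ier2 by little, so the simulation does not measure the power to call them. Each standard error is the absolute fold change (log2) over the root of F, and 95% intervals come from the same fit. Alternatives were DESeq2 1.42.0, limma-voom, factors by RLE or upper quartile, filtering at a mean of 1 CPM or not at all, and limma with a trend on log2(authors' signal + 1) (limma 3.58.1), a sex covariate read from Xist and 4 Y-linked genes, and each library left out. A block of adjacent tags was added after seeing the data; within each of the 3 couples deviations from the group means correlated (r = 0.22 to 0.40), but the pairing rests on the tags alone, not on a label. Floors of 3 counts cover counting error only. Exon lengths and overlaps are from GENCODE M21 (GRCm38), restricted to the gene span of the table, whose end coordinates lie 1 base past those of GENCODE for most genes and are printed here less that base.

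The members and lists were chosen with earlier results of these data known. Named were all members, list genes with an adjusted p under 0.05 or the 3 smallest p-values of a list, the 5 genes most like Fos, and Gpr161; other genes are marked as picked with values known, and Gli1 and Dcn were also named with their values known.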

Additional observations from a re-analysis of the deposited data

How the results depend on the processing

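The count of members called was 0 in all 15 alternatives. The number of all genes called was 247 (192 higher, 55 lower), 872 with DESeq2 (565 higher, 307 lower), 409 with a sex covariate, 704 with a replicate block of adjacent tags (465 higher, 239 lower; chosen after seeing the data), 229 to 254 in the 6 other alternatives with all libraries, and 69 to 121 with a library left out, where fewer samples lower the count by construction; the cause of the others was not tested. The number of members above the 90th percentile of spread was 5, and 4 to 6 in the alternatives. Signs reversed only when a library was left out. Ranges over those fits were −0.0028 to 0.69 for Fos, −0.43 to 1.45 for Fosl1, −0.23 to 0.20 for Jun, −0.029 to 0.21 for Jund and −0.12 to 0.096 for Ier2, and none passed the threshold. Fosb, Fosl2, Junb, Egr1 and Atf3 kept a positive sign in every alternative. The replicate numbers of the titles could not be used as a block, since the columns do not carry them. With the block of adjacent tags no member changed sign or call; Socs3, Sgk1, Klf4, Maf, Spry1 and Sprr1b became called, and no other named list gene changed its call. Among the members, depth limits Fosl1 most.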

Other observations

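Among known AP-1 targets, the matrix protease genes Mmp13 and Mmp9, picked once their values were known, had an SD near that of Fosb (0.86 and 0.84, against 0.84). Both were at 3.95 CPM or less in every library, while Fosb had 308 to 959 counts, so these SDs were not measured at a like level. Mmp13, a collagenase, had 1.48, 0.116 and 1.98 CPM in the knockout and 3.90, 3.95 and 1.75 CPM in the control. Its within-group SD was at percentile 98.8 of all genes tested, and the change of −1.37 had an edgeR adjusted p of 0.320. Mmp9, a gelatinase, had 2.67, 0.173 and 1.28 CPM in the knockout and 0.621, 0.175 and 0.397 CPM in the control (1.81, adjusted p 0.281). In DE685 both were at or under the level of 3 counts, 0.173 CPM, while that library had the highest Fosb, Fosl1 and Atf3; Mmp9 was equally low in DE684. Ptgs2, the inducible cyclooxygenase, had 6.21 CPM in DE680 and 0.98 to 2.46 CPM in the other 5 libraries (−1.13, edgeR adjusted p 0.249).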
